A study of Mus musculus with 9 samples.

Results

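The chemokine ligand genes Ccl2, Ccl3, Ccl4, Ccl6, Ccl9, Ccl12, Cxcl2, Cxcl10 and Cxcl16 were followed by their gene symbols in retinal myeloid cells, 9 of the 27998 genes in the files. The mice were female Arr1-/- animals without visual arrestin, the protein that shuts off light-activated rhodopsin, and light therefore damages their photoreceptors. They were kept in the dark (day 0) or held in room light of about 200 lux for 7 or 20 days (day 7 and day 20). All 3 groups carry the Arr1 deletion and were reared in darkness, so the day 0 group is a dark control of the same genotype. Living CD45+ CD11b+ cells were sorted from digested retinas and captured in droplets, and 3 libraries per day counted unique molecular identifiers (UMIs), which tag single captured transcripts at their 3′ ends. The study states its sequencing n per time point as retinas and mice and does not tie them to libraries, so p-values measure the spread between libraries.

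Chemokines are small secreted proteins that guide leukocytes along gradients through receptors on the cell surface. In nervous tissue, microglia, the resident macrophages, are a main source of them, and several are made within minutes to hours of a stimulus because their promoters respond to NF-kappaB, AP-1 and interferon-regulated factors. Ccl3 and Ccl4 draw macrophages and T cells, Ccl2 and Ccl12 act on Ccr2 and draw monocytes, Ccl6 and Ccl9 act on Ccr1, Cxcl2 draws neutrophils through Cxcr2, and Cxcl10 draws activated T cells through Cxcr3. Cxcl16 is made as a membrane protein that can be shed by Adam10, and its receptor is Cxcr6.

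Barcodes were shared between libraries to an unusual degree. The 5022 deposited entries held 1365 different barcodes, 612 of them in more than 1 library and 270 in all 9, and each barcode was therefore kept only in the library where its UMI total was highest. After filters on quality and on markers of other cell types, 745 cells with 1119919 UMIs remained, 20 to 192 cells and 21520 to 255360 UMIs per library. Day 7 replicate 3 had 20 cells and day 20 replicate 3 had 34, and many values that rest on them are given with and without them. The permutation tests of expected shares and the day comparisons by immediate-early level, described below, are given only with them. Complement C1qa, a product of microglia and macrophages, was detected in 689 of the 745 cells, and Itgam (CD11b) and Ptprc (CD45) had 228 and 167 UMIs in all. These genes are among the myeloid markers used to retain cells, so their counts cannot check the sort label. Of 851 cells passing the quality filters, 106 were left out for markers of other cell types. The libraries as deposited, shared barcodes included, held 247290 to 441678 UMIs. Levels below are CPM, the UMIs of a gene in the summed cells of a library scaled to a common library total.

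The genes lie in groups on the mouse genome (mm10, GENCODE M21 annotation), and all are protein coding. On chromosome 11, Ccl2 (chr11:82035571-82037453, plus strand) and Ccl12 (chr11:82101845-82103400, plus strand) lie within 67.8 kb. A second group holds Ccl9 (chr11:83572919-83578636, minus), Ccl6 (chr11:83587882-83593087, minus), Ccl3 (chr11:83647844-83649355, minus) and Ccl4 (chr11:83662584-83664683, plus) within 91.8 kb, and the neighbours Ccl3 and Ccl4 are separated by 13.2 kb. Cxcl16 (chr11:70453983-70459984, minus) stands apart on the same chromosome. Cxcl2 (chr5:90903871-90905938, plus) and Cxcl10 (chr5:92346638-92348889, minus) lie on chromosome 5.

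RefSeq promoter windows (GRCm38.p6) were given for 6 of the 9 genes and not for Ccl2, Ccl4 and Cxcl16. The 250 bases before the RefSeq start are printed for Cxcl10 and Cxcl2, which have the most motif matches, and for Ccl3 and Ccl12, which have none, as the ligands with a window whose RNA was called with the cells' immediate-early RNA below. Capitals mark matches, on either strand, to a kappaB-like motif (GGG, any 3 bases, TTCC), an interferon response element-like motif (GAAA, any 2 bases, GAAA) or an AP-1-like motif (TGANTCA), and the last bases of the Cxcl2 window lie inside the gene as GENCODE draws it.
Cxcl10, chr5:92348890-92349139, minus strand: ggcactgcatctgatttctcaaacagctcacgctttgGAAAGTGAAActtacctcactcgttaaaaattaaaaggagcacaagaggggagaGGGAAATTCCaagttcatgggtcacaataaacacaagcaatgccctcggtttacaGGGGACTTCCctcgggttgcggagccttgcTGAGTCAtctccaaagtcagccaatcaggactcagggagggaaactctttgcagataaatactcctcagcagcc
Cxcl2, chr5:90903649-90903898, plus strand: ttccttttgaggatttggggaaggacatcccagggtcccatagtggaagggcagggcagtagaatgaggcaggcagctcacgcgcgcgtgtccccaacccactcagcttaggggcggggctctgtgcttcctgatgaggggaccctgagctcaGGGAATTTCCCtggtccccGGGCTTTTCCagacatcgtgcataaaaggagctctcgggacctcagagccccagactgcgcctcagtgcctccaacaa
Ccl3, chr11:83649379-83649628, minus strand: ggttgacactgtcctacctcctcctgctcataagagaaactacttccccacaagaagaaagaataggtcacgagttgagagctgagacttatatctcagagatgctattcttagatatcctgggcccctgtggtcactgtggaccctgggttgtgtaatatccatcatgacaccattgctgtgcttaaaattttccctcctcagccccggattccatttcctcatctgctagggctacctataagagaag
Ccl12, chr11:82101595-82101844, plus strand: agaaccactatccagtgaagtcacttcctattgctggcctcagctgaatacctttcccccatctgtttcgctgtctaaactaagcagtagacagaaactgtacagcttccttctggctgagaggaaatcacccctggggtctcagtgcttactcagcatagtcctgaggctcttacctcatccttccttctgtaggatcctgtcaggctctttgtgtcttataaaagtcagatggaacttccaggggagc
The Cxcl2 window held kappaB-like matches 97, 96 and 78 bases before the start, and the first 2 overlap each other. The Cxcl10 window held kappaB-like matches at 159 and 104 bases, an interferon response element-like match at 213 bases and an AP-1-like match at 74 bases. The Ccl9 window, not printed, held a kappaB-like match at 35 bases and an AP-1-like match at 53 bases, and the windows of Ccl3, Ccl6 and Ccl12 held none of these letters. Over all 32851 windows of the same length, 4.65% held a kappaB-like, 2.98% an interferon response element-like and 6.75% an AP-1-like match. A match is a description of letters and was not tested as a binding site.

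The 9 ligands together gave 14895 UMIs, and Ccl4 and Ccl3 gave most of them. Counts of 3′ ends do not scale with transcript length, so UMIs can be ordered across genes. Ccl4 (7026 UMIs) ranked 14th and Ccl3 (4720 UMIs) 27th among the 13216 genes with a UMI. Ccl12 (1271) and Ccl2 (876) followed, and Ccl6 (331), Cxcl16 (210), Cxcl2 (178), Cxcl10 (149) and Ccl9 (134) were scarce. Summed over the 9 ligands, 1.65%, 1.78% and 2.97% of all UMIs were chemokine transcripts in the day 0 libraries, 0.418%, 0.203% and 1.72% at day 7, and 1.29%, 1.91% and 0.391% at day 20. The highest and the lowest day 20 libraries thus differed more from each other than the day means did. Ccl3 and Ccl4 made up 81.5% to 87.8% of the ligand UMIs at day 0 and 43.2% to 77.2% after light.

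**Figure D1:**
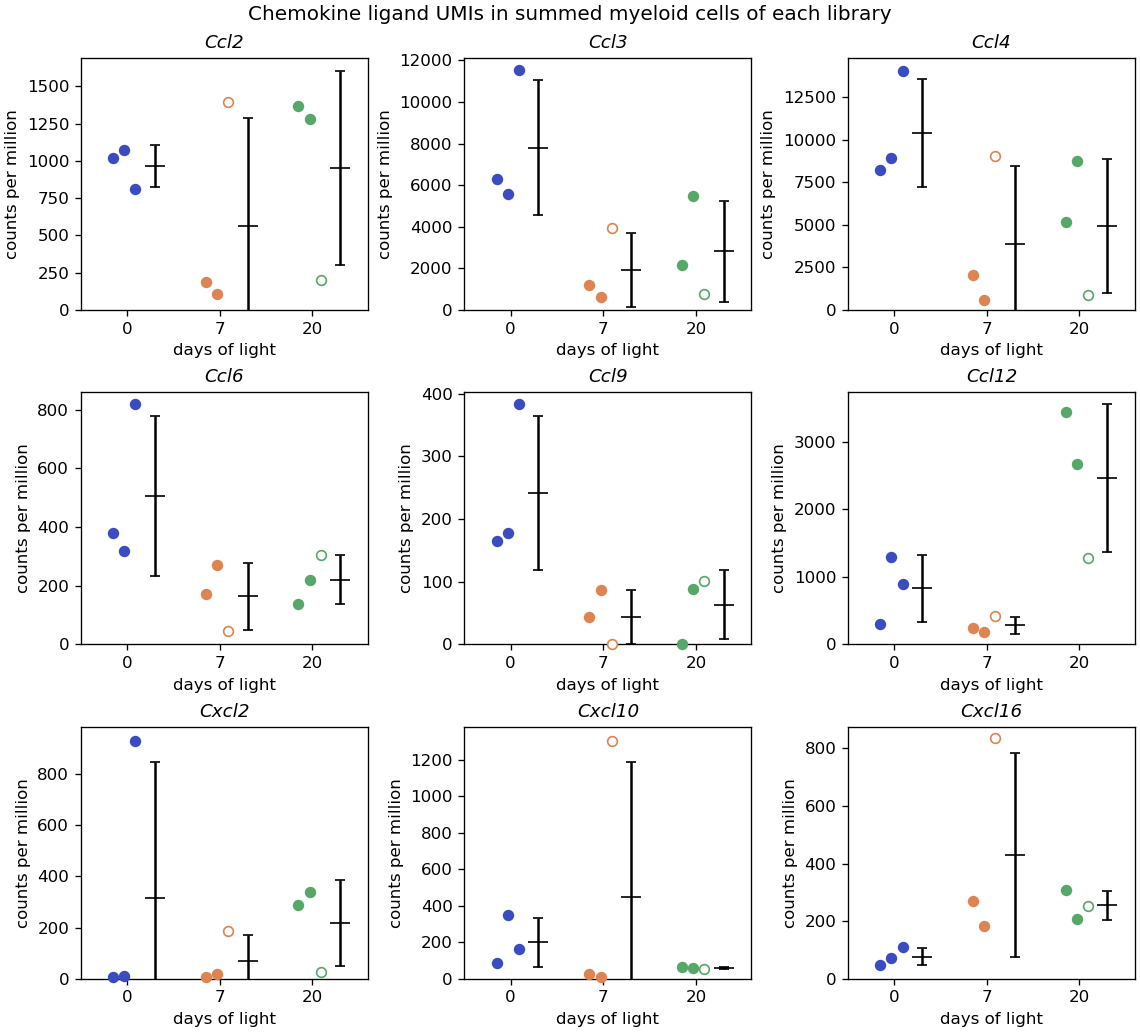
Level of each ligand (vertical axis, CPM, each panel on its own scale from 0) in the 3 libraries of each day of light (points), with the mean and SD beside them, bars cut at 0. Open points are day 7 replicate 3 and day 20 replicate 3, the libraries under 50 cells. Cxcl16 lay at 48.9 to 109 CPM at day 0 and at 184 or more in all 6 later libraries, and Ccl12 lay at 1286 CPM or more in all day 20 libraries.

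Day 7 was compared with day 0 to ask how ligand RNA differs after a week of light, with edgeR's quasi-likelihood test on the summed counts (Benjamini-Hochberg adjusted p under 0.05 over 1415 tested genes). A summed level cannot tell fewer cells with a transcript from less of it per cell. Cxcl16 rose, and Ccl3, Ccl9 and Ccl12 fell. The remaining 5 ligands did not pass. Of all tested genes 23.5% were called (8.34% higher, 15.2% lower), and the median log2 fold change was −1.37 over the 9 ligands and −0.05 over all tested genes.

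Cxcl16 was measured at 48.9, 72.9 and 109 CPM at day 0 and at 270, 184 and 836 CPM at day 7. The groups did not overlap, as for 12.2% of tested genes in that direction, and the highest value came from the library of 20 cells. The log2 fold change was 2.33 ± 0.52 (SE; adjusted p = 0.00563), and all 9 fits that left out 1 library kept the call (1.84 to 2.77). On the libraries as deposited, with shared barcodes in, the change was 1.05 (adjusted p = 0.018), less than with single-library cells. Cxcl16 was the only ligand called at day 7 on the deposited counts.

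Ccl3 stood at 6301, 5576 and 11544 CPM at day 0 and at 1198, 602 and 3950 CPM at day 7, again without overlap, as for 26.1% of tested genes in that direction. Its log2 fold change was −2.02 ± 0.66 (adjusted p = 0.0408). The call was lost without day 0 replicate 1 (−2.23), day 0 replicate 3 (−1.67), day 7 replicate 1 (−1.76) or day 7 replicate 2 (−1.58), under DESeq2 (−1.95, adjusted p = 0.102), with at least 500 genes per cell (−2.07, adjusted p = 0.0506), with all assigned barcodes and no filter on cells (−1.86, adjusted p = 0.109) and on the deposited counts (−0.46, adjusted p = 0.254). Ccl4, its neighbour in the genome, showed 8204, 8923 and 14047 CPM at day 0 and 2029, 563 and 9061 CPM at day 7. The day 7 library of 20 cells lay among the day 0 values, and the log2 fold change of −1.37 ± 0.79 did not pass (adjusted p = 0.222). Without that library both genes were called, at −2.90 for Ccl3 and −2.77 for Ccl4, and Ccl4 was also called with no filter on low counts (−1.74, adjusted p = 0.0224). The fit without day 7 replicate 3 called 516 of 2079 tested genes.

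Ccl9 and Ccl6 were low throughout. Ccl9 was at 165, 177 and 383 CPM at day 0 and at 43.1, 87.4 and 0 CPM at day 7, with no overlap. Its log2 fold change was −1.98 ± 0.67 (adjusted p = 0.0469), and the call was lost without any 1 of the 3 day 0 or the 3 day 7 libraries (−2.42 to −1.47). It was also lost on the deposited counts (−0.64, adjusted p = 0.155), with no filter on low counts (−1.88, adjusted p = 0.0592), with all assigned barcodes (−1.37, adjusted p = 0.144) and without both libraries under 50 cells (−1.70, adjusted p = 0.0634). Ccl6 was at 379, 318 and 820 CPM at day 0 and at 172, 272 and 46.5 CPM at day 7, and its log2 fold change of −1.25 ± 0.44 missed the threshold (adjusted p = 0.0524). Ccl6 was called with library totals as the scaling (−1.45, adjusted p = 0.0306), with at least 100 genes per cell (−1.30, adjusted p = 0.0494) and with mitochondrial UMIs under 5% (−1.24, adjusted p = 0.0499). The high day 0 value of both genes came in large part from 1 cell, described below.

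Ccl12 was at 306, 1291 and 896 CPM at day 0 and at 243, 184 and 418 CPM at day 7. The ranges overlapped. Its log2 fold change was −1.61 ± 0.52 (adjusted p = 0.0395), and the call was lost without day 0 replicate 2 (−1.15) or replicate 3 (−1.50) and without day 7 replicate 1 (−1.57) or replicate 2 (−1.33). It was lost as well with no filter on low counts (−1.59, adjusted p = 0.0683), with at least 100 genes per cell (−1.45, adjusted p = 0.0527) and with all assigned barcodes (−1.29, adjusted p = 0.184), and on the deposited counts the change was −0.07 (adjusted p = 0.906). Ccl2, its neighbour and fellow Ccr2 ligand, was at 1016, 1072 and 809 CPM at day 0 and at 188, 107 and 1394 CPM at day 7. Its log2 fold change of −1.17 ± 0.77 did not pass (adjusted p = 0.288), and without the library of 20 cells it was −2.45 (adjusted p = 0.00376).

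The scarce CXC ligands did not pass at day 7. Cxcl10 was at 85.6, 349 and 164 CPM at day 0 and at 27.4, 9.71 and 1301 CPM at day 7, a log2 fold change of 0.38 ± 1.18 (adjusted p = 0.847). Without the library of 20 cells the sign turned, to −3.00 (adjusted p = 0.00404), and 23 of the 28 Cxcl10 UMIs in that library lay in 1 cell. Cxcl2 was at 6.12, 10.4 and 929 CPM at day 0 and at 7.83, 19.4 and 186 CPM at day 7, a log2 fold change of −3.31 ± 1.64 (adjusted p = 0.156), which turned to 1.63 without day 0 replicate 3 and was called with no filter on low counts (−3.16, adjusted p = 0.00031). For both genes the direction at day 7 rested on 1 library.

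**Figure D2:**
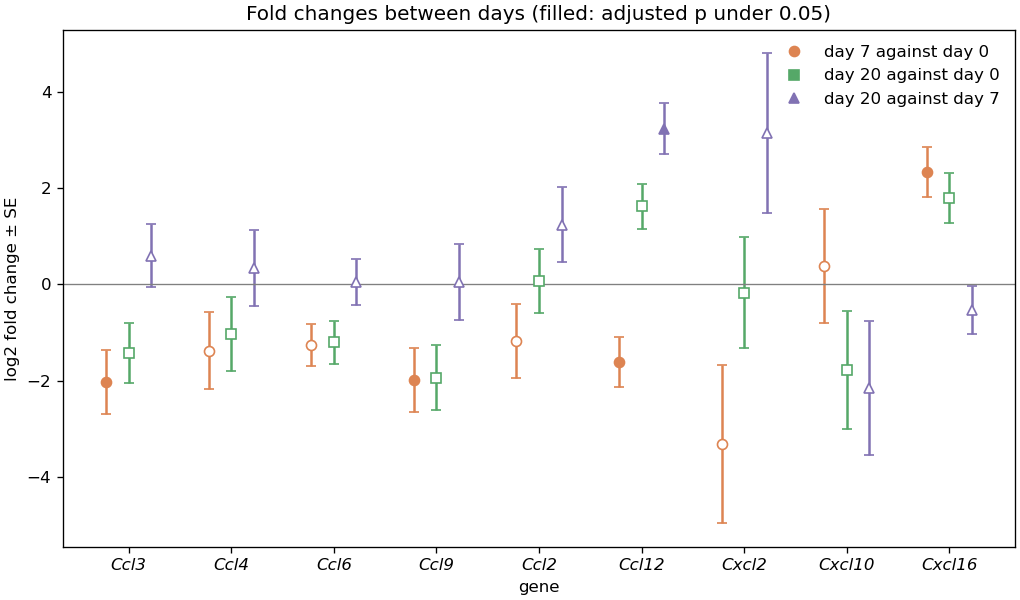
Log2 fold change with its standard error (vertical axis) of each ligand (horizontal axis) between days, from the edgeR fit of all 9 libraries. Filled symbols passed an adjusted p of 0.05, which held for 4 ligands at day 7 against day 0, for Ccl12 at day 20 against day 7 (3.23) and for none at day 20 against day 0.

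At day 20, edgeR called 0 of the 9 ligands against day 0, and 2.12% of all tested genes were called. At an unadjusted p under 0.05 there were 5 ligands, Ccl3, Ccl6, Ccl9, Ccl12 and Cxcl16, and 17.5% of all tested genes. DESeq2 called Ccl12 (1.56, adjusted p = 0.0448). Cxcl16 was at 308, 207 and 252 CPM, above every day 0 library, as for 11.2% of tested genes in that direction, and its log2 fold change was 1.80 ± 0.52 (adjusted p = 0.0817; 0.0172 without day 7 replicate 3). Ccl9 was at 0, 88 and 101 CPM (−1.93 ± 0.67, adjusted p = 0.151) and Ccl6 at 138, 220 and 303 CPM (−1.20 ± 0.44, adjusted p = 0.167), both below every day 0 library, as for 14.6% of tested genes. Ccl3 at 2175, 5493 and 781 CPM (−1.42 ± 0.63, adjusted p = 0.261) and Cxcl10 at 63.7, 56.6 and 50.4 CPM (−1.77 ± 1.22, adjusted p = 0.501) also lay below every day 0 library, and Ccl3 was called without day 20 replicate 2 (−2.41, adjusted p = 0.0475). Ccl4 (5157, 8755 and 908 CPM), Ccl2 (1369, 1282 and 202 CPM) and Cxcl2 (287, 339 and 25.2 CPM) overlapped with day 0. Cxcl2 was called, as higher, without day 0 replicate 3 (4.78, adjusted p = 0.0249).

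Ccl12 separated the late retina from day 7. It was at 3449, 2671 and 1286 CPM at day 20 and at 243, 184 and 418 CPM at day 7, and the groups did not overlap, as for 13.3% of tested genes in that direction. Its log2 fold change was 3.23 ± 0.53 (adjusted p = 0.00465), 9.41-fold, and all 9 fits without 1 library kept the call (2.88 to 3.50). In the fit of all 9 libraries it was the only ligand called at day 20 against day 7, where 3.04% of all tested genes were called (2.47% higher). The call was lost with all assigned barcodes and no filter on cells (2.99, adjusted p = 0.0615) and on the deposited counts (0.85, adjusted p = 0.485). It was also lost in cells with at most 1 immediate-early UMI, a class described below (1.49, adjusted p = 0.189). Against day 0 the day 20 change of Ccl12 was 1.62 ± 0.46 (adjusted p = 0.0807), with 1 day 20 library, of 34 cells, just below the highest day 0 library, and it was called without that library (1.93, adjusted p = 0.0267) or without day 7 replicate 3 (1.63, adjusted p = 0.0435). Ccl2 beside it in the genome changed by 1.24 ± 0.78 from day 7 to day 20 (adjusted p = 0.461), and by 2.53 without day 7 replicate 3 (adjusted p = 0.0129). Without both libraries under 50 cells Ccl2 (2.93, adjusted p = 9.0e-05), Ccl3 (1.90, adjusted p = 0.0168) and Ccl4 (2.22, adjusted p = 0.006) were called as higher at day 20 than at day 7, and with no filter on low counts Cxcl2 was (2.95, adjusted p = 0.00582). Of all tested genes, 103 of 2372 were called without both these libraries and 98 of 2079 without day 7 replicate 3. Whether Ccl12 and Ccl2 differ in the change from day 7 to day 20 was not tested.

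For the mean of both light groups against day 0, Cxcl16 was higher (2.07 ± 0.47, adjusted p = 0.00646) and Ccl3 (−1.72 ± 0.52, adjusted p = 0.0363), Ccl6 (−1.23 ± 0.36, adjusted p = 0.0304) and Ccl9 (−1.95 ± 0.54, adjusted p = 0.0226) were lower, whereas 18.4% of all tested genes were called (4.88% higher, 13.5% lower). In each of these the 6 libraries after light lay on 1 side of the day 0 libraries, as for 4.52% of tested genes above and 11.7% below. Without day 7 replicate 3, 434 of 2079 tested genes were called. Among them were also Ccl2 (−1.18, adjusted p = 0.0372), Ccl4 (−1.89, adjusted p = 0.0112) and Cxcl10 (−2.38, adjusted p = 0.00265). This comparison shares its libraries with those above. The call of Ccl6 was lost without day 0 replicate 3 (−0.69), day 7 replicate 1 (−1.17) or day 20 replicate 1 (−1.05), and without the highest cell of each ligand (−0.76, adjusted p = 0.0864). The call of Ccl9 was lost without day 0 replicate 3 (−1.45) or day 7 replicate 1 (−1.79), that of Ccl3 without day 0 replicate 3 (−1.32), day 7 replicate 1 (−1.58) or day 7 replicate 2 (−1.50), and that of Cxcl16 without day 0 replicate 1 (1.75, adjusted p = 0.0506). On the deposited counts the calls of Ccl3 (−0.39, adjusted p = 0.3), Ccl6 (−0.54, adjusted p = 0.106) and Ccl9 (−0.57, adjusted p = 0.184) were lost, as they were with all assigned barcodes (−1.49, adjusted p = 0.111, −0.99, adjusted p = 0.207, and −1.44, adjusted p = 0.0574). Ccl3 was not called by DESeq2 (−1.73, adjusted p = 0.109) or with at least 500 genes per cell (−1.69, adjusted p = 0.0617), nor Ccl6 with no filter on low counts (−1.25, adjusted p = 0.0872). With no such filter Ccl4 (−1.37, adjusted p = 0.0303) and Cxcl2 (−1.69, adjusted p = 0.0258) were called.

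Ligand RNA was concentrated in few cells. The 74 cells with the most UMIs of a gene, 10% of all, held 93% of Ccl2, 90.5% of Ccl3, 89.7% of Ccl4 and 89% of Ccl12. The median over the 1413 tested genes with a unique symbol was 79.2%, which rises for scarce genes since fewer cells can hold them, and the abundant complement gene C1qa had 46.3%. Ccl6 was more evenly spread at 67.1% and Cxcl16 at 77.6%. Cxcl2 was found in 25 cells and Cxcl10 in 41, and 5 cells held 83.7% of all Cxcl2. The immediate-early genes Jun (94%) and Junb (90.6%), whose RNA appears within minutes of stimulation, were as unevenly spread as Ccl3 and Ccl4.

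**Figure D3:**
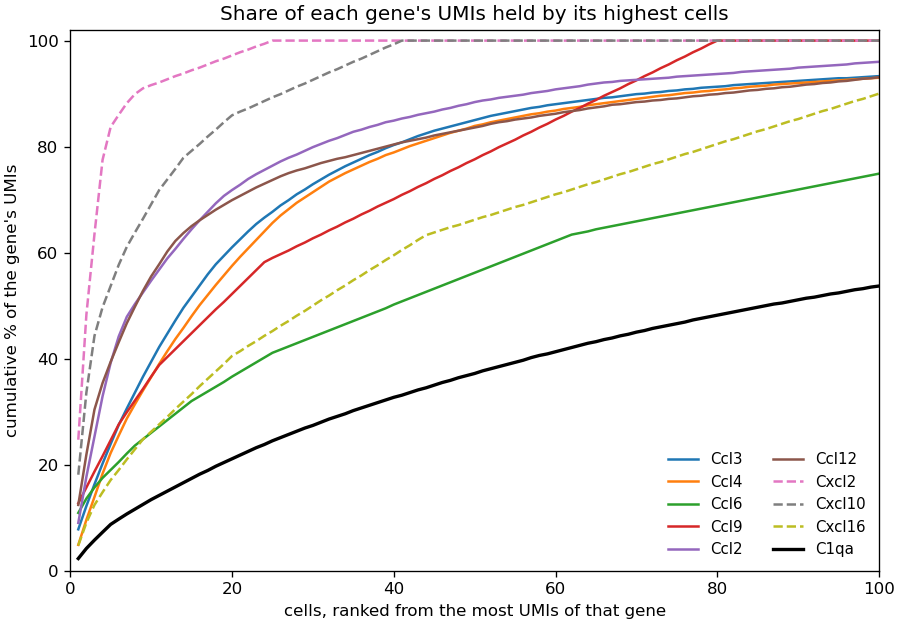
Cumulative share of a gene's UMIs (vertical axis, %) over the 100 cells with the most UMIs of that gene (horizontal axis, ranked), out of 745 cells, for the 9 ligands (CC ligands solid, CXC ligands dashed) and the complement gene C1qa (black). Cxcl2 reached 100% by cell 25, and 74 cells held 67.1% of Ccl6 against 46.3% of C1qa.

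Single cells therefore carried much of a library's value. A day 0 replicate 3 cell of 6153 UMIs held 368 Ccl3, 306 Ccl4, 36 Ccl6, 17 Ccl9 and 42 Cxcl2 UMIs, the highest of all cells for Ccl3, Ccl6 and Ccl9. It made up 48% of the Ccl6, 48.6% of the Ccl9, 49.4% of the Cxcl2 and 34.8% of the Ccl3 of its library. This cell differed from the others in its remaining RNA, with 7 C1qa UMIs, 8 UMIs of microglia markers and 0 of neutrophil markers, together with 72 of the 73 Il6 UMIs of the retained cells, 44 of the 66 UMIs of Hdc, the enzyme that forms histamine, 50 of the 133 of Osm and all 7 of Mcpt8, a granule protease known from basophils. These companion genes were chosen after their values were seen. The cell also held 56 UMIs of rod markers against 65 of myeloid markers, while the other highest cells held 3 to 13 of rod markers. Whether it is a mixture of cells was not tested. Without the highest cell of each ligand, 6 cells in all, Ccl3 changed by −1.74 at day 7 (adjusted p = 0.0527) and Ccl9 by −1.65 (adjusted p = 0.0586), and the calls of Cxcl16 at day 7 (2.31) and of Ccl12 at day 20 against day 7 (2.95) were kept.

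The other 5 highest cells each held at least 80 microglia-marker UMIs. The highest Ccl2 cell (79 UMIs, day 0 replicate 2) also held 34 Ccl12 and 113 Ccl4 UMIs. The highest Ccl12 cell (158 UMIs, day 20 replicate 1) held 44 Ccl2 and 132 Ccl4 UMIs, and made up 48.6% of the Ccl12 of its library. The highest Ccl4 cell (342 UMIs, day 20 replicate 2) had 17231 UMIs in all and was also the highest for Cxcl16, with 10. The highest Cxcl10 cell (27 UMIs, day 0 replicate 2) held 0 Ccl2, 0 Ccl12 and 0 Cxcl2, and the highest Cxcl2 cell (44 UMIs, day 20 replicate 2) held 0 Cxcl10. The highest cells of these scarce ligands were thus different cells.

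To compare shares of cells at 1 depth, cells of at least 500 UMIs (615 of 745, 130 left out) were reduced to 500 UMIs each. By a single random draw, 191 cells held Ccl3 and 239 held Ccl4. Of cells with Ccl3, 59.2% also held Ccl4, against 29.7% of cells without Ccl3. Ccl2 was accompanied by Ccl4 in 67.6% of its 71 cells, against 35.1% of the others, and by Ccl12 in 33.8% against 14.2%. Cxcl10 was accompanied by Ccl4 in 15 of 17 cells and Cxcl2 in 8 of 10. Ccl4 was held by 44.6% of Ccl6 cells against 38.1% of the others, higher at day 0 (55.9% against 49.7%) and day 20 (44.4% against 33.8%) and lower at day 7 (27.3% against 31.7%). Cxcl16 cells held Ccl4 in 46.9% against 38.2%, higher on each day (60% against 50.5% in 5 cells of day 0, 43.3% against 29.7% in 30 of day 7 and 50% against 33.6% in 14 of day 20). At least 3 of the 9 ligands were seen in 23.4% of day 0 cells, 6.35% of day 7 cells and 17.5% of day 20 cells, and none in 23.9%, 38.9% and 31.2%. These are shares of pooled cells, described without a test.

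The share of cells expected to hold a UMI over all draws, a value that no single draw can move and that was chosen after the data were seen, is given per library. The Ccl3 share was 40.4%, 46.1% and 44.5% at day 0, 23.5%, 20.3% and 35.7% at day 7 and 23%, 32.9% and 20.2% at day 20. The Ccl6 share was 18.6%, 16% and 18.6% at day 0 and 1.53% to 12.9% after light, and the Ccl9 share 6.98%, 12% and 10.2% at day 0 and 0% to 3.98% after light. For these 3 genes no library after light reached a day 0 library, and each difference (−17.7, −9.25 and −7.47 percentage points after light) had the smallest p that 3 against 6 libraries can give (two-sided exact permutation test, p = 0.0119, 9 such tests). By CPM, 11.7% of tested genes lay below day 0 in all 6 libraries after light. The share of all genes that separate so is not given for this measure, so 3 of 9 is not read as unusual. In cells left out for their markers, described below, the Ccl3 share was also lower after light. It was 27.1% in 63 such cells of day 0, 12% in 12 of day 7 and 7.27% in 7 of day 20. The part of background RNA in the Ccl3 difference was not tested. The Cxcl16 share was 0.795%, 4.13% and 3.62% at day 0 and 6% to 22.6% after light, 9.11 points higher (exact permutation p = 0.0476). It did not overlap with day 0 either. The lowest Ccl6 share (1.53%) and the highest Cxcl16 share (22.6%) came from the 12 such cells of day 7 replicate 3.

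The Ccl12 share was 10%, 20.4% and 11.1% at day 0, 10.3%, 6.68% and 10.4% at day 7 and 28.6%, 33.5% and 28.7% at day 20. All day 20 libraries lay above the other 6, and the mean over both light groups differed from day 0 by 5.87 points (exact permutation p = 0.44), since days 7 and 20 lay on either side. How many of all genes separate day 20 so by share of cells is not given either. Ccl4 (p = 0.0714), Ccl2 (p = 0.345), Cxcl2 (p = 0.857) and Cxcl10 (p = 0.762, exact permutation tests) did not separate light from dark. By the single draw, Ccl3 had the same p of 0.0119, Ccl4 0.0357, Ccl6 0.0476, Cxcl16 0.0952 and Ccl9 0.119 (exact permutation tests), so the values of the scarce genes depend on the draw.

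**Figure D4:**
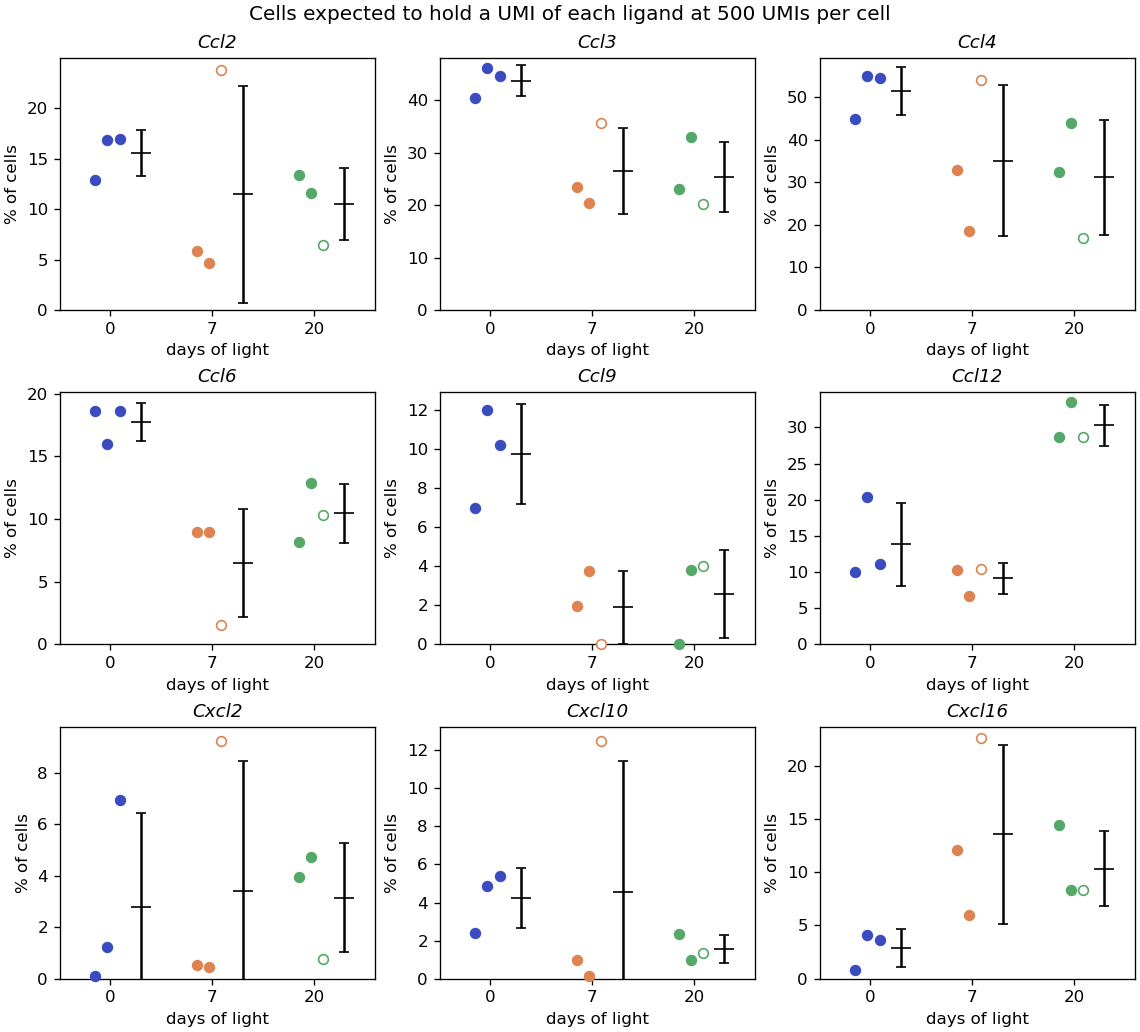
Percent of cells expected to hold at least 1 UMI of each ligand when every cell is reduced to 500 UMIs (vertical axis, each panel on its own scale from 0), per library and day of light, with mean and SD beside the points, bars cut at 0. Open points are the libraries under 50 cells. Ccl3, Ccl6 and Ccl9 were lower in all 6 libraries after light than in any at day 0, and Ccl12 was highest in the 3 day 20 libraries (28.6% to 33.5%). The share of all genes that separate in these ways is not given.

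Cells left out for their markers were taken as a reference for background. In them, markers of other cell types together exceeded myeloid markers, so they may still hold RNA of myeloid cells, which was not tested. Among 106 cells left out for their markers, 86 were led by rod genes, whose cells should lack these ligands, and 20 by genes of the lens, lymphocytes, neurons or endothelium, some of which can make chemokines. The median of all 106 was 1116 UMIs, against 909 in the retained cells. Over all draws to 500 UMIs, the 70 rod-led cells deep enough had an expected share of 33.5% for Ccl4, 24.3% for Ccl3, 5.72% for Ccl2, 1.77% for Cxcl2, 1.71% for Ccl12, 1.53% for Ccl6, 1.21% for Cxcl10, 1.1% for Cxcl16 and 0.334% for Ccl9. The retained cells of 4 of the 6 libraries after light lay below this for Ccl4 (17% to 32.9%) and for Ccl3 (20.2% to 23.5%), and so did day 7 replicate 2 for Ccl2 (4.67%). Below it were also 5 libraries for Cxcl2 (0.0964% to 1.25%), 3 libraries after light for Cxcl10 (0.152% to 0.984%), day 0 replicate 1 for Cxcl16 (0.795%) and the 2 libraries at 0% for Ccl9, and day 7 replicate 3 equalled it for Ccl6 (1.53%). The Ccl12 share exceeded it in every library.

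These left-out cells came mostly from the dark, 77 from day 0 libraries, 19 from day 7 and 10 from day 20. Over left-out cells of every type, the expected Ccl4 share was 36.8% in the 63 deep enough at day 0, 29.5% in 12 at day 7 and 0% in 7 at day 20, that of Ccl3 27.1%, 12% and 7.27%, and that of Ccl2 5.64%, 0% and 8.3%. Set against the cells of its own day, Ccl4 stayed below only in day 7 replicate 2 (18.5%), Ccl2 only in day 20 replicate 3 (6.46%), and Ccl3 in no library. Cxcl2 was below in replicates 1 and 2 of day 0 (0.0964% and 1.25%, against 1.97%) and of day 7 (0.548% and 0.437%, against 2.9%). Cxcl16 was below in day 0 replicate 1 (0.795%, against 1.22%). All day 20 libraries were below for Cxcl10 (0.963% to 2.36%, against 4.51%, which rests on 1 UMI). Shares below both the rod-led cells and those of their own day, as for Ccl4 in day 7 replicate 2, are not read as expression. For the other shares the reading depends on which of these few cells are taken. By summed level, the rod-led cells held 846 CPM of Ccl4 and 598 CPM of Ccl3, and day 7 replicate 2 held 563 and 602 CPM. The 19 left-out cells of day 7 held 541 CPM of Ccl4 and 220 CPM of Ccl3.

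Immediate-early genes such as Fos, Jun and Egr1 are switched on by stimuli, tissue digestion among them, and their summed level was 32509 to 42306 CPM at day 0, 2767 to 6506 at day 7 and 7991 to 21394 at day 20. The ordering of the days was the same as that of Ccl3 means, and all 11 immediate-early genes were lower at day 7 than at day 0. Heat shock genes, whose proteins refold others after stress, moved with them, at 3530 to 4613 CPM at day 0, 1115 to 1747 at day 7 and 1868 to 2074 at day 20. All 4 that could be tested fell at day 7 (Hspa1a −4.96 and Dnajb1 −3.53 on the log2 scale), 2 of 4 at day 20 and 3 of 4 over both light groups, and their part in the ligand results was not tested. In each library, cells above its median of immediate-early UMIs (after reduction to 500 UMIs) were therefore compared with the remaining cells (7 libraries with at least 10 cells in each class, 203 cells above and 372 at or below). Of the 575 cells, 375 lay within 1 UMI of the limit, so the classes are ranges and not cell types. Median depth was 1499 UMIs above and 955 below.

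Ccl2, Ccl3, Ccl4 and Ccl12 were higher in the class above, 4 of the 5 ligands that could be tested, whereas 37.6% of the other tested genes were called (20.7% higher). Of the heat shock genes 2 could be tested, and both were higher in that class, Hspa8 by 1.05 and Hsp90aa1 by 1.55. Ccl4 rose by 3.77 ± 0.32 on the log2 scale (adjusted p = 3.0e-08) and Ccl2 by 3.67 ± 0.31 (adjusted p = 3.2e-08), both in 7 of 7 libraries. In the class below, Ccl2 had only 2 to 9 UMIs per library and 42 in all. It passed the filter on low counts mainly through the class above, and in only 6 of the fits without 1 library. Its place among the tested ligands thus depends in part on the direction tested. Ccl3 rose by 3.63 ± 0.35 (adjusted p = 1.2e-07), with 4317 of its UMIs in the class above and 255 below. Within libraries the Ccl3 level went from 671 to 9783 CPM in day 0 replicate 1, from 383 to 1154 CPM in day 7 replicate 2 and from 603 to 8615 CPM in day 20 replicate 2. In the class below, the Ccl3 level was 612 to 725 CPM in the day 0 libraries, near the 709 CPM of left-out cells of day 0. It was 664 and 383 CPM at day 7 and 261 and 603 CPM at day 20. These lay above the 220 CPM of the 19 left-out cells of day 7 and the 95.1 CPM of the 10 of day 20.

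Ccl12 rose by 2.22 ± 0.43 (adjusted p = 0.000643), yet not in every library. It was higher in the class above in all 3 day 0 libraries and in both day 20 libraries, as from 670 to 5168 CPM in day 20 replicate 1, and lower in both day 7 libraries (254 to 201 CPM and 219 to 72.1 CPM). Ccl6 changed by 0.23 ± 0.27 (adjusted p = 0.534) and was higher in 4 of 7 libraries. Cxcl10 (113 UMIs above, 5 below, higher in 7 of 7), Cxcl2 (167 and 6), Cxcl16 (101 and 72) and Ccl9 (71 and 50) were too scarce for the fit.

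**Figure D5:**
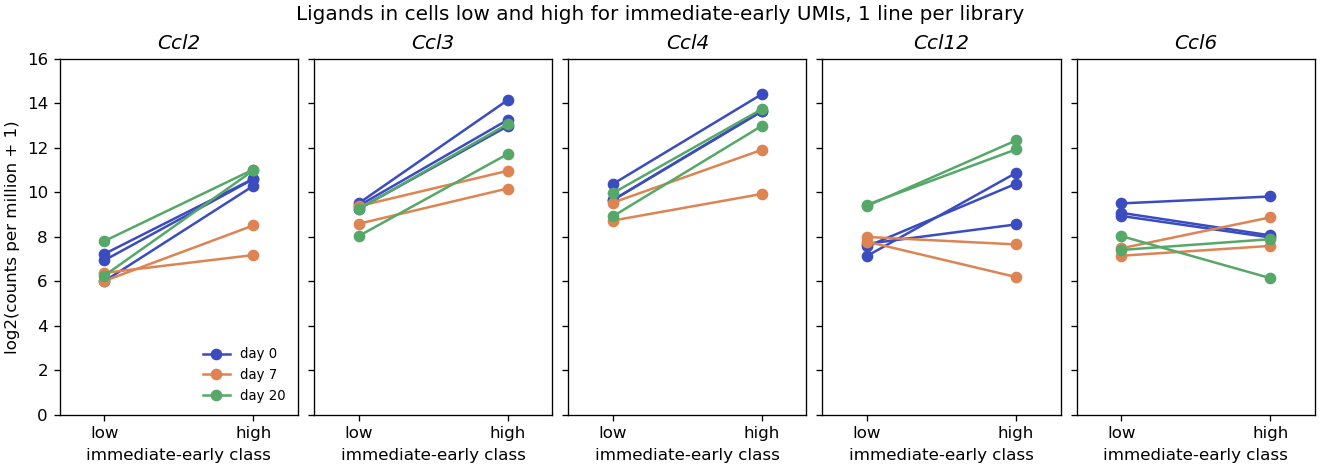
Level of 5 ligands (vertical axis, log2 of CPM plus 1) in cells at or below (low) and above (high) their library's median of immediate-early UMIs, 1 line for each of 7 libraries, coloured by day. Lines rise in every library for Ccl2, Ccl3 and Ccl4, fall at day 7 and rise elsewhere for Ccl12, and go both ways for Ccl6.

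The day comparison was repeated in cells with at most 1 immediate-early UMI and in those with more, as alternatives chosen after the data were seen. In cells with more, Cxcl16 was called at day 7 (2.59, adjusted p = 0.00417), as were Ccl3 (−1.68, adjusted p = 0.0344) and Ccl12 (−2.38, adjusted p = 0.00524), and the rise of Ccl12 from day 7 to day 20 was 4.38 (adjusted p = 0.000118). Of all tested genes in cells with more, 171 of 1137 were called at day 7. In cells with at most 1, Ccl3 (0.16, adjusted p = 0.907), Ccl4 (−0.85, adjusted p = 0.314) and Ccl12 (1.22, adjusted p = 0.398) could be tested at day 7, and none was called. There, 24 of 412 tested genes were called. Day 7 replicate 3 gave only 3 cells with at most 1 and 9 with more. The day 0 libraries gave 15, 28 and 10 cells with at most 1, which limits what that fit can show. In those cells the rise of Ccl12 from day 7 to day 20 was 1.49 ± 0.49 and lost its call (adjusted p = 0.189). The part of immediate-early RNA in the day differences was not tested beyond these values.

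Cells after light were also divided by MHC class II RNA (H2-Aa, H2-Ab1 and H2-Eb1), whose proteins present antigen and mark monocyte-derived and activated macrophages. These genes stood at 255 to 536 CPM at day 0, 4543 to 15846 at day 7 and 2659 to 5985 at day 20, the same order of days as Cxcl16. In 5 libraries, 195 cells held a class II UMI and 199 did not, and edgeR called 0 of the 6 ligands it could test and 0.368% of the other genes, with 2 ligands (Cxcl16 and Ccl6) and 6.99% of other genes at an unadjusted p under 0.05. Cxcl16 was at 344 against 151 CPM in day 7 replicate 1, 400 against 49.4 in day 7 replicate 2, 571 against 178 in day 20 replicate 1, 304 against 158 in day 20 replicate 2 and 540 against 90.2 in day 20 replicate 3. It was higher in class II cells in 5 of 5 libraries, by 1.65 ± 0.37 on the log2 scale (adjusted p = 0.0681), and passed under DESeq2 (1.74, adjusted p = 0.045), with at least 2 class II UMIs against 0 (2.11, adjusted p = 0.034) and without day 20 replicate 1 (1.70, adjusted p = 0.0357). Ccl6 differed by 0.82 ± 0.32 (adjusted p = 0.506), also higher in 5 of 5. Ccl12 (−0.79 ± 0.59), Ccl2 (−0.50 ± 0.50), Ccl3 (0.12 ± 0.41) and Ccl4 (0.15 ± 0.39) had adjusted p-values of 0.999.

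RNA listed as markers of other cell types was found in the retained cells, and some of it moved with the days. Neutrophil markers summed to at most 53.1 CPM in any library with 4 of 8 at 0, and lymphocyte markers to 12.2 to 604 CPM. Of the 11 lymphocyte genes listed, 10 were among the genes counted and 9 had a UMI. Rod markers were at 1119 to 6821 CPM at day 0 and 201 to 1125 CPM after light. Microglia markers were at 13085 to 14837 CPM at day 0, 4275 to 4417 at day 7 and 8670 to 10427 at day 20, and markers of monocytes and macrophages, led by Lyz2, which microglia also express, at 989 to 1383, 4926 to 9786 and 2539 to 4991 CPM. Both tested genes of that list rose at day 7, Ms4a7 by 5.47 and Lyz2 by 2.68, while 7 of 8 tested microglia markers fell and Fcrls rose by 2.57. The defining monocyte genes Ccr2 and Ly6c2 had 19 and 9 UMIs in all, too few for a test, and their means were highest at day 7. At days 0, 7 and 20 Ccr2 was at 0, 53.1 and 3.54 CPM and Ly6c2 at 3.47, 18.8 and 0 CPM. The 8 Muller glia markers summed to 3504 to 9843 CPM at day 0, 81540 to 124117 at day 7 and 36070 to 97535 at day 20, nearly all of it Apoe (48448 UMIs), which macrophages and microglia also express. Of 6 tested, Apoe (4.11) and Vim (1.89) rose at day 7, Apoe (3.26) at day 20 and these and Clu (3.50) over both light groups. Glul (1014 UMIs) did not pass at day 7 (−0.04 ± 0.72, adjusted p = 0.975). Scarcer genes of the list had higher means after light. At days 0, 7 and 20 Clu was at 42.1, 379 and 592 CPM and Rlbp1 at 19.8, 200 and 243 CPM. Dkk3 was at 20.3, 101 and 371 CPM and Aqp4 at 0, 43.9 and 80.4 CPM. Slc1a3 was lower at day 7 and higher at day 20 (34.7, 18.1 and 79.6 CPM). Lens markers were at 355 to 1197, 186 to 1300 and 201 to 446 CPM with 1 of 4 tested lower at each later day, neuron markers at 469 to 568, 476 to 604 and 616 to 1084 CPM with 0 of 1 called, and endothelial markers at 19.4 to 139 CPM in any library with none tested. Microglia markers followed the order of days of Ccl3 and Ccl9, and the lists of monocytes and macrophages and of Muller glia that of Cxcl16. Their part in these results was not tested.

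Few other genes of the chemokine system were abundant enough for a test. Of 27 further ligand genes, 26 were among the genes counted, 15 had a UMI and 2 could be tested. These 2 were the T cell and monocyte attractant Ccl5 (573 UMIs, log2 fold change at day 7 of 1.91 ± 0.95, adjusted p = 0.16) and Ccl7 (136 UMIs, 0.36 ± 1.28, adjusted p = 0.868). Cxcl14, the next by UMIs, had 31. Of 23 receptors, 16 had a UMI and 2 could be tested. Cx3cr1, the fractalkine receptor of microglia (594 UMIs), fell by 1.56 on the log2 scale at day 7 (SE 0.36, adjusted p = 0.00677) and was higher in the cells above the immediate-early median (1.87 ± 0.25, adjusted p = 8.9e-06). Ccrl2, a receptor that binds without signalling (297 UMIs), did not pass at day 7 (adjusted p = 0.304). The receptors Ccr2 (19 UMIs) and Cxcr6 (13 UMIs) were scarce. Among 8 proteases that shed or trim chemokines only the cathepsin Ctss (9349 UMIs) could be tested (−0.35 ± 0.22 at day 7, adjusted p = 0.261), and Adam10, the sheddase of Cxcl16, had 64 UMIs and Adam17 had 36.

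Regulators and cytokines of the same response were partly called. Of 13 regulators of chemokine transcription, 5 were tested at day 7 and 4 fell. Nfkbia and Tnfaip3, NF-kappaB inhibitors that NF-kappaB itself induces, changed by −2.78 ± 0.43 (adjusted p = 0.000374) and −3.81 ± 0.68 (adjusted p = 0.00109). Nfkbiz, another induced NF-kappaB partner, changed by −3.11 ± 0.47 (adjusted p = 0.000363) and Irf5 by −1.45 ± 0.38 (adjusted p = 0.0148). Irf7, the interferon-induced factor, rose by 3.21 ± 0.47 (adjusted p = 0.000343) and was lower again at day 20 than at day 7 (−3.02 ± 0.51, adjusted p = 0.00465). The list median was −2.78 over the 5 tested genes. Of 8 cytokines 3 were tested. Il1a (−5.05 ± 0.54, adjusted p = 4.1e-05) and Tnf (−3.42 ± 0.53, adjusted p = 0.000429) fell at day 7 and rose from day 7 to day 20 by 4.33 ± 0.55 (adjusted p = 0.00145) and 2.93 ± 0.54 (adjusted p = 0.00773), as Ccl12 did, whereas Il1b did not pass in either comparison (1.35 ± 0.64 and 0.26 ± 0.60).

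Over the 9 libraries the genes most like each ligand were named by the Pearson correlation of log2(CPM + 1), as a description of points that share libraries and depth. Ccl3 was most like Saraf (0.98), Ccl4 (0.97) and Khk (0.95), and Ccl4 most like Ccl3 (0.97), Lmna and Saraf (both 0.95). Ccl2 was most like Hsp90b1 (0.94), Vav1 (0.93) and Ccl4 (0.92). Ccl6 was most like Cd82 (0.93), Tpm3 and Alox5ap (both 0.92) and had 0.88 with its neighbour Ccl9, which was most like Mgat1 and Gnb2 (both 0.97) and Tyrobp (0.90). Ccl12 had weaker partners, Sdf2l1 (0.84), Cd14 and Idh3g (both 0.81), and reached 0.56 with Ccl2. Cxcl16 was most like the antigen presentation genes Cd74 (0.95) and H2-Ab1 (0.94) and Aldh2 (0.94). Cxcl2 was most like Psme2 (0.86), Uqcrc1 (0.80) and Tapbp (0.77), and Cxcl10 like Herpud1 (0.90), Tcn2 and Ube2s (both 0.89).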

How the data were processed

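CD45+ CD11b+ cells of female Arr1-/- retinas were profiled with 10x Genomics 3′ chemistry in 9 libraries, 3 each for days 0, 7 and 20. Per the labels, the authors made the deposited UMI count matrices with Cell Ranger on mm10 and applied no normalization to them; its version is not given in the sources used here. Each barcode was kept in the library of its highest total, which left out 51.7% of all UMIs in repeated entries. Cells with at least 200 genes and under 10% mitochondrial UMIs were retained unless markers of other cell types together exceeded myeloid markers. Those other markers were of rods, lens, lymphocytes, neurons and endothelium. Markers of Muller glia and of neutrophils were not used to leave out cells. No doublet caller was run. Counts were summed per library and tested with edgeR 4.0.16 (TMM, filterByExpr, quasi-likelihood test, Benjamini-Hochberg adjusted p of 0.05, all 9 libraries in 1 fit), with the library as a block between classes of cells. DESeq2 1.42.0 was an alternative. Classes and shares used cells reduced to 500 UMIs. Two-sided exact permutation tests of shares had 84 splits. Scripts were tested on simulated data. The ligands and all lists were chosen with earlier results of these data known. Other genes are named where they passed the adjusted threshold or were among the 3 with the most UMIs of their list. Added outside that rule were the receptors Ccr2 and Cxcr6, the monocyte gene Ly6c2, the scarcer Muller glia genes and the genes of the highest Ccl3 cell. Not every gene meeting the rule is named. Replicate numbers were not used to pair libraries in the main fits. Correlations between libraries of the same number were −0.09 to 0.19 (1 of 9 above 0.1), and of different numbers −0.17 to 0.21 (2 of 18). Such values cannot decide whether libraries of 1 number were prepared together. Whether reads shared between family members were dropped in counting is not given in the sources used here.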

Additional observations from a re-analysis of the deposited data

Results flagged for a closer look

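The 106 cells left out of every comparison for markers of other cell types held more ligand UMIs than the 3 that a count of 0 allows. They held 130 UMIs of Ccl4, 88 of Ccl3, 14 of Ccl2, 8 of Ccl6, 7 of Ccl12 and 7 of Cxcl2 among 167638 UMIs. Cxcl10 (3 UMIs), Cxcl16 (2) and Ccl9 (1) were not above that limit. The left-out cells had 775 CPM of Ccl4 and 525 CPM of Ccl3, against 6274 and 4215 CPM over the retained cells, and 41.8 CPM of Ccl12 against 1135. Their Ccl4 UMIs were 103 in 77 cells of day 0, 27 in 19 cells of day 7 and 0 in 10 cells of day 20. The 86 cells led by rod genes, which should lack these ligands, held 99 of the Ccl4 and 70 of the Ccl3 UMIs (846 and 598 CPM), and the 20 led by other lists 31 and 18. The source of these UMIs was not tested.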

How the results depend on the processing

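Over all alternatives run for the single ligands, 919 of 1100 values kept direction and side of the threshold, 57 lost a call, 39 gained one and 85 changed sign. Nearly all that changed sign were values not called in the main fits. The call of Cxcl16 at day 7 held in all 14 alternatives and in all 9 fits without 1 library, and the calls of Ccl3, Ccl4 and Ccl12 with immediate-early RNA in every alternative. Ccl2 was called wherever it could be tested, but it passed the filter on low counts mainly through the class above. Its calls there are therefore not independent of the direction tested. The cause of the changes below was not tested. Libraries of 20 to 192 cells, with 0 to 35 UMIs of Ccl9 in each, limit what the scarce ligands can show. Analyses by immediate-early level, without the highest cells, without both libraries under 50 cells and with expected shares were chosen after the data were seen.

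The number of tested genes differed between fits, so the counts below are not shares of 1 total. In the comparisons of days it was 1415 in the main fits and 2730 on the deposited counts. It was 2562 with all assigned barcodes, 2372 without both libraries under 50 cells and 13216 with no filter on low counts. Cells at or below and above the pooled immediate-early median had 412 and 1137, and the fit without day 7 replicate 3 had 2079. The number of genes called at day 7 against day 0 was 333. It was 67 on the deposited counts, 163 with all assigned barcodes, 584 without both libraries under 50 cells, 24 in cells at or below the pooled median of immediate-early UMIs and 171 in cells above it, and 164 to 516 without 1 library, the lowest without day 7 replicate 2 and the highest without day 7 replicate 3. At day 20 against day 0, 30 genes were called. By edgeR the number was 0 on the deposited counts (262 genes at an unadjusted p under 0.05) and 0 in cells at or below the median (33 genes unadjusted). It was 48 by DESeq2, 85 with no filter on low counts, 47 with at least 100 and 12 with at least 500 detected genes per cell, 49 with mitochondrial UMIs under 5% and 80 without the highest cells, and 22 to 60 without 1 library (55 without day 7 replicate 3, 60 without day 20 replicate 2). At day 20 against day 7, 43 genes were called. The number was 0 on the deposited counts by edgeR (171 genes at an unadjusted p under 0.05), 67 with library totals as the scaling, 70 with mitochondrial UMIs under 5%, 3 with all assigned barcodes, 103 without both small libraries and 8 in cells at or below the median, and 14 to 98 without 1 library (14 without day 7 replicate 1, 98 without day 7 replicate 3). For the mean of both light groups, 260 genes were called. The number was 53 on the deposited counts, 156 with at least 500 genes per cell, 161 with all assigned barcodes, 488 without both small libraries, 22 and 121 in cells at or below and above the median, and 158 to 434 without 1 library (158 without day 0 replicate 2, 434 without day 7 replicate 3). Between immediate-early classes, 131 genes were called without the library as a block. Between MHC class II classes, 2 genes were called besides the class II genes. The number was 4 by DESeq2, 1 with library totals, 1 without the library as a block, 8 with at least 2 UMIs against 0, and 1 to 5 without 1 library. Of the 9 shares of cells, 0 passed an adjusted p of 0.05 in the single draw and 3 in another draw and 3 with expected shares; 3 had an exact permutation p under 0.05 in the single draw without adjustment.

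The fit with the replicate number as a block is given, although whether the numbers pair the libraries is not known. With this replicate block the calls of Ccl9 (−1.72, adjusted p = 0.0745) and Ccl12 (−1.58, adjusted p = 0.0658) at day 7, and of Ccl3 (−1.67, adjusted p = 0.0518) and Ccl6 (−1.09, adjusted p = 0.054) over both light groups, passed the threshold no longer, and the signs of Cxcl10 at day 7 (−0.27), of Cxcl2 at day 20 (1.86) and over both light groups (0.11), and of Ccl6 (−0.07) and Ccl9 (−0.25) at day 20 against day 7 turned.

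Other changes of sign were of values not called in the main fits, except for Ccl3 and Ccl12 in cells at or below the pooled immediate-early median. Some values were called by edgeR with the turned sign. These were Cxcl10 at day 7 without day 7 replicate 3 (−3.00, adjusted p = 0.00404) and without both small libraries (−2.93, adjusted p = 0.00411). Cxcl2 at day 20 against day 0 was another, without day 0 replicate 3 (4.78, adjusted p = 0.0249). In those cells at or below the median, Ccl3 was 0.16 and Ccl12 1.22 at day 7, Ccl3 −0.18 at day 20 against day 7 and 0.07 over both light groups. Cxcl10 at day 7 was −0.27 on the deposited counts, −2.93 without both small libraries and −3.00 to 1.41 without 1 library, and Cxcl2 −4.33 to 1.63 without 1 library. At day 20 against day 0, Ccl2 was −0.04 by DESeq2, −0.09 without the highest cells and −0.24 to 0.50 without 1 library, and Cxcl2 was 0.32 on the deposited counts and in cells above the median, 0.21 with all assigned barcodes, 0.19 without the highest cells, 0.27 without both small libraries and −0.98 to 4.78 without 1 library. At day 20 against day 7, Ccl6 was −0.27 on the deposited counts, −0.09 with no filter, −0.20 with at least 500 genes, −0.01 with mitochondrial UMIs under 5%, −0.37 without both small libraries, −0.79 in cells above the median and −0.20 to 0.37 without 1 library. In that comparison Ccl9 was −0.10 with no filter, −0.18 with at least 100 genes, −0.14 with all assigned barcodes, −0.11 without the highest cells, −0.36 without both small libraries and −0.88 to 0.61 without 1 library, Ccl3 was −0.35 to 1.50, Ccl4 −0.36 to 1.76 and Cxcl10 −3.14 to 1.23 without 1 library, and Cxcl10 was 1.27 without both small libraries. Over both light groups, Ccl12 was −0.04 with RLE size factors, −0.13 with library totals, −0.01 by DESeq2, −0.02 with no filter, −0.30 with at least 500 genes, −0.09 without the highest cells, −0.19 in cells above the median and −0.46 to 0.44 without 1 library, Cxcl2 was −2.49 to 3.21 and Cxcl10 −2.38 to 0.03 without 1 library. Between MHC class II classes, Ccl3 was −1.19 with at least 2 UMIs against 0, −0.38 in another draw and −0.27 to 0.43 without 1 library, Ccl4 was −1.06, −0.72 and −0.13 to 0.69, Ccl2 was −0.79 to 0.00 without 1 library and Ccl12 was 0.78 at 1000 UMIs per cell. The difference in the share of Cxcl2 cells was −3.56 points at 1000 UMIs, −0.515 in another draw and −1.12 to 2.07 without 1 library, and that of Cxcl10 −3.24 to 0.0888 without 1 library.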
